A study of Mus musculus with 25 samples.

Results

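Of the 9931 genes measured in cells that were sorted as neurons from the mouse sensorimotor cortex, 7 that are known for their expression in the endothelium of brain vessels were followed across all 25 libraries. The 7 genes were named by symbol, with earlier results of these data known, and all were in the table. They are *Flt1* and *Kdr*, the receptors 1 and 2 for vascular endothelial growth factors (VEGF), *Tek*, the receptor of the angiopoietins, *Cldn5* and *Cdh5*, which encode the junction proteins claudin-5 and VE-cadherin, *Pecam1*, an adhesion molecule of the endothelial surface, and *Ly6c1*, a surface protein anchored in the membrane of brain endothelial cells. The labels give the sorted cells as neurons, which are not known for this set. In bulk samples, fewer cells of a type and less RNA per cell cannot be told apart.

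All mice, labelled C57BL/6, were 4 to 6 weeks old, of both sexes, and carried REST flx/flx and STOP flx/flx TdTomato alleles. Virus in the sensorimotor cortex drove either GFP (AAV-Syn-GFP, wild-type, WT) or Cre (AAV-Syn-Cre, REST cKO) from the human synapsin promoter, which acts in neurons, so that the WT controls also had floxed *Rest* and no Cre. Mice had a sham operation or a complete crush of the spinal cord at thoracic level 10 (SCI), and fluorescent cells were collected by FACS. The WT libraries were 4 of sham mice and 3 from each of days 1, 3 and 7 after SCI. Those of REST cKO were 3 of sham mice, then 2, 4 and 3 from the same 3 days. By the labels the WT mice at day 7 were all female and the REST cKO mice of the sham and day 7 groups all male. The labels do not name the animals, so p-values measure the spread between these libraries.

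The sorted cells were checked against markers. In the neuron list 19 of 20 genes were in the table, and their mean log2 value ran from 0.34 to 1.89 over the libraries, while all 16 microglia genes were in the table with a mean from 2.40 to 3.18 and 11 of 14 astrocyte genes with a mean from 0.40 to 2.67. The microglia mean was above the neuron mean in all 25 libraries, by 0.57 to 2.75, so the markers go against a label of neurons alone and the libraries are called sorted cells here. The lists hold different genes, whose capture by the 3′ kit may differ. *Rest*, the targeted gene, lay lower in REST cKO than in WT without overlap at day 3 (-1.61 to -0.04 against 0.56 to 2.88) and day 7 (-1.21 to -0.33 against 0.26 to 2.74). In sham (-2.65 to -0.52 against -1.55 to -0.26) and at day 1 (-0.43 and -0.40 against -1.35 to 0.71) the genotypes overlapped. Deposited values are log2 normalized counts without read totals, from which 2 components of sequencing and alignment quality were removed. *Rest* was among 135 genes whose values still correlated with a component (absolute r above 0.01, 0.326 for *Rest*), so its check is weak, and none of the 7 endothelial genes was among them. Between 2.77% and 29.5% of a library's values lay under -2, with the highest share in WT SCI day 3 replicate 5.

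Brain endothelial cells line the vessels and form the blood-brain barrier, for which they depend on tight junctions built on claudin-5 and adherens junctions built on VE-cadherin. VEGF-A acts mainly through KDR to drive vessel growth and permeability, whereas FLT1 binds VEGF-A and VEGF-B and can hold the ligand back from KDR. TEK (also called TIE2) is activated by angiopoietin-1, is modulated by angiopoietin-2 and keeps resting vessels stable. Many of these genes are controlled by transcription factors of the ETS family, such as ERG and FLI1, whose binding sites share a GGAA core.

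*Flt1* and *Tek* were the pair of endothelial genes whose values were most alike across libraries, so the 250 bases before their transcription starts are shown. These were taken from RefSeq (GRCm38.p6), in which 5 of the 7 genes were matched by symbol. *Flt1* is read from the minus strand at chr5:147726012-147726261 and *Tek* from the plus strand at chr4:94739039-94739288. Capitals mark GGAA or its reverse complement TTCC.
Flt1: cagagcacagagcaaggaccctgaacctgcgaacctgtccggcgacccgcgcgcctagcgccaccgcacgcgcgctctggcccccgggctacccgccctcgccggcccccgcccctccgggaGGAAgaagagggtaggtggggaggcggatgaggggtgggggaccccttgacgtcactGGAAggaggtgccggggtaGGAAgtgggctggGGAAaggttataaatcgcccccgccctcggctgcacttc
Tek: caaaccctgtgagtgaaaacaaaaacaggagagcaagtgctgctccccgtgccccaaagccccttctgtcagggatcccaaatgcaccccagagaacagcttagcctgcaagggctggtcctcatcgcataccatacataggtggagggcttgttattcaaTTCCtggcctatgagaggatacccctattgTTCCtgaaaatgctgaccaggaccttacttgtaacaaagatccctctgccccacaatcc
The *Flt1* window held 4 copies of the GGAA core on both strands together and the *Tek* window 2, against a median of 3 over 32851 promoters, of which 93.4% held at least one copy. The longer string AGGAAG, which contains the core and was also searched on both strands, occurred 2 times before *Flt1* and 0 times before *Tek*, and was present in 29.5% of all promoters. *Kdr* had 4 copies of the core, *Cldn5* 0, and *Ly6c1* 6 and 4 at its 2 listed starts. These letter matches describe the windows and do not mark binding sites.

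The 2 VEGF receptors lie on the minus strand of chromosome 5 of GRCm38. *Flt1* (ENSMUSG00000029648) spans 147561604 to 147726011. Its log2 value in WT sham was 2.69, 2.50, 2.50 and 2.86. After SCI it was 3.52, 2.87 and 3.28 in the WT libraries of day 1, then 3.58, 2.59 and 3.67 on day 3 and 2.98, 2.95 and 3.27 on day 7. The libraries of day 1 and day 7 all lay above those of sham, and at day 3 replicate 16 fell within the sham range. In REST cKO the values were 3.39, 2.64 and 3.08 in sham, 3.87 and 2.79 at day 1, 3.19, 3.39, 3.48 and 2.83 at day 3, and 3.46, 2.67 and 2.82 at day 7. Each REST cKO group overlapped the WT group of the same time point. WT sham had the lowest mean of *Flt1* (2.64 ± 0.171, SD, n = 4) and REST cKO at day 1 the highest (3.33 ± 0.761, SD, n = 2). No neighbouring pair in the order of the 8 group means was further apart than the pooled SD within groups (0.386).

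*Kdr* (ENSMUSG00000062960, 75932827 to 75978458) did not follow the same order. In WT its log2 value was -0.13, 1.66, 1.66 and 2.02 in sham, 0.83, 1.61 and 1.55 at day 1, 2.03, 1.18 and 1.73 at day 3, and 1.80, 2.37 and 0.27 at day 7. The WT groups overlapped throughout, and WT sham replicate 3 lay far below the other sham libraries. REST cKO gave 1.80, 0.52 and 2.17 in sham, 2.42 and 2.49 at day 1, 1.46, 1.17, 1.30 and 1.42 at day 3, and 2.89, 2.93 and 2.10 at day 7. Both REST cKO libraries at day 1 lay above all 3 WT libraries of that day. The 2 highest group means were those of REST cKO at day 7 (2.64 ± 0.466, SD, n = 3) and day 1 (2.45 ± 0.0447, SD, n = 2). Of the 7 steps between neighbouring group means, 6 were smaller than the pooled SD within groups (0.683).

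*Tek* (ENSMUSG00000006386), the angiopoietin receptor, lies on the plus strand of chromosome 4 from 94739289 to 94874976. In WT sham its log2 value was -0.51, -2.99, -1.33 and -1.38. The WT libraries after SCI gave 2.70, 0.26 and 0.53 at day 1, 2.04, 1.46 and 1.30 at day 3, and -0.61, 0.80 and 2.14 at day 7. All 4 WT sham libraries were below 0, and after SCI only day 7 replicate 4 was. REST cKO gave 1.88, -1.27 and 1.44 in sham, 1.58 and -1.76 at day 1, 1.86, 1.01, 2.28 and 0.63 at day 3, and -0.36, -1.30 and 0.20 at day 7. Both REST cKO libraries at day 1 differed by more than the whole range of WT at that day. The group means ran from -1.55 ± 1.04 (SD, n = 4) in WT sham to 1.60 ± 0.391 (SD, n = 3) in WT at day 3, and neighbours in this order differed by less than the pooled SD within groups (1.22).

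**Figure D1:**
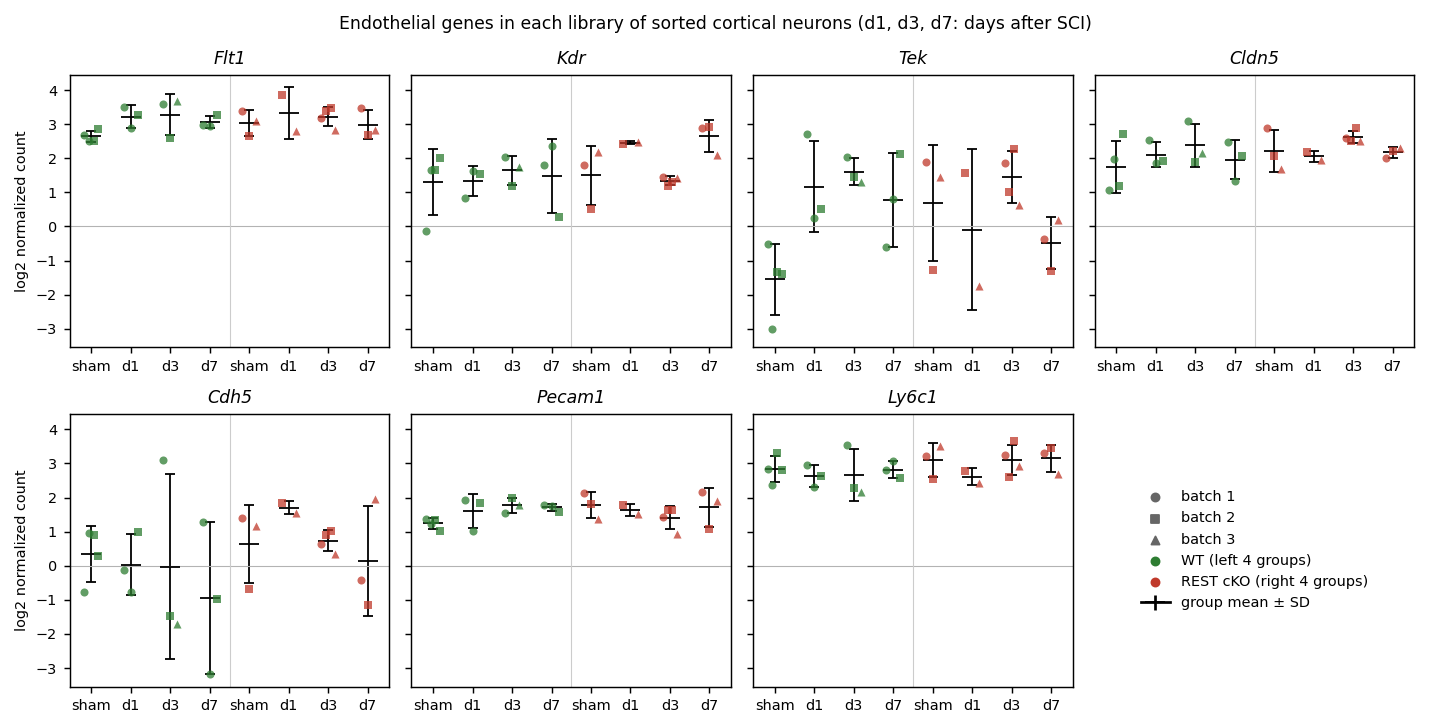
Log2 normalized count of each endothelial gene (y axis) in the 25 libraries by group (x axis), with green for WT, red for REST cKO, a marker shape for each batch, and a bar for the group mean ± SD. *Tek* lies below 0 in all 4 WT sham libraries, while *Flt1*, *Ly6c1*, *Cldn5* and *Pecam1* stay above 0 in every library.

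Among the junction genes, *Cldn5* (ENSMUSG00000041378, plus strand of chromosome 16, 18776847 to 18778262) was the steadier. Its log2 value was 1.08, 1.98, 1.17 and 2.70 in WT sham, 1.86 to 2.54 in WT at day 1, 1.89 to 3.10 at day 3 and 1.33 to 2.48 at day 7. In REST cKO it was 1.67 to 2.88 in sham, 1.94 and 2.17 at day 1, 2.51 to 2.89 at day 3 and 2.00 to 2.30 at day 7. WT sham replicate 17 lay within or above the range of every other group, so no group stood apart from WT sham. *Cdh5* (ENSMUSG00000031871, plus strand of chromosome 8, 104101625 to 104144511) varied far more. In WT the range was -0.77 to 0.97 for sham, -0.77 to 0.99 for day 1, -1.71 to 3.09 for day 3 and -3.17 to 1.29 for day 7. REST cKO gave -0.68 to 1.40 in sham, 1.56 and 1.84 at day 1, 0.34 to 1.03 at day 3 and -1.14 to 1.96 at day 7. The highest *Cdh5* value of all libraries (3.09) came from WT SCI day 3 replicate 5, and the other WT libraries of that day gave -1.48 and -1.71. *Cdh5* overlaps the antisense gene *Gm29682*, and whether counting used strand is not given in the sources used here, so reads of the 2 genes may not be told apart.

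*Pecam1* (ENSMUSG00000020717, minus strand of chromosome 11, 106654217 to 106750628) was the least variable of the 7. In WT sham its log2 value was 1.38, 1.22, 1.33 and 1.03. In WT after SCI it was 1.94, 1.02 and 1.84 at day 1, 1.54, 1.98 and 1.79 at day 3, and 1.78, 1.76 and 1.58 at day 7. All WT libraries of day 3 and day 7 lay above all of sham, and at day 1 replicate 8 was level with the lowest sham library. REST cKO libraries gave 1.38 to 2.14 in sham, 1.52 and 1.77 at day 1, 0.94 to 1.64 at day 3 and 1.08 to 2.18 at day 7. Its pooled SD within groups was 0.341, and only 3.25% of the 1354 genes with a mean log2 value within 0.25 of it had a smaller one.

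*Ly6c1* (ENSMUSG00000079018, minus strand of chromosome 15, 75044018 to 75048830) kept a like level in all groups. Group means ran from 2.61 ± 0.246 (SD, n = 2) in REST cKO at day 1 to 3.15 ± 0.400 (SD, n = 3) in REST cKO at day 7, with 2.83 ± 0.380 (SD, n = 4) in WT sham. The lowest single value (2.16) and one of the highest (3.55) were both from WT at day 3. Its pooled SD within groups (0.448) was larger than that of 92.1% of the 214 genes of like mean. *Ly6c1* has a close copy, *Ly6c2*, so reads may be split between them and both values are uncertain. The mean log2 value of *Ly6c2* was between 2.88 and 3.30 in 7 groups and 1.84 ± 0.628 (SD, n = 3) in REST cKO at day 7. Across the 25 libraries the 2 copies had a Pearson's r of -0.14.

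WT sham was the group with the lowest mean for 5 of the 7 genes (*Flt1*, *Kdr*, *Tek*, *Cldn5* and *Pecam1*), for 4 after quantile normalization and for 2 after centring each library on its median. Of all genes, 10.6%, 9.03% and 6.74% had their lowest mean in WT sham under the same 3 scalings. The mean over the 7 genes was 0.94 to 1.47 in the WT sham libraries, 1.31 to 2.05 at day 1, 1.41 to 2.71 at day 3 and 1.30 to 1.79 at day 7 in WT. In REST cKO it was 1.09 to 2.39 in sham, 1.57 to 2.35 at day 1, 1.66 to 2.32 at day 3 and 1.42 to 2.00 at day 7. REST cKO at day 1 and at day 3 lay wholly above WT sham in this mean, and the other groups overlapped it.

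The first comparison asked what SCI changed in the WT sorted cells. With limma over all 25 libraries and Benjamini-Hochberg adjustment over 9931 genes, none of the 7 genes passed an adjusted p of 0.1 at day 1, day 3 or day 7. This was also true of nearly all genes, since 0%, 0.0101% and 0% of them passed. At an unadjusted p under 0.05, 1, 2 and 1 of the 7 passed, where 6.43%, 6.9% and 6.89% of all genes did. The fitted values below include the 2 quality components, so they can differ from the difference of the group means. Over all genes the median log2 fold change on days 1, 3 and 7 was 0.12, 0.01 and -0.12.

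*Tek* had the largest fold change of the 7 genes at each time. Its log2 fold change was 2.63 (SE 1.01, unadjusted p = 0.0151, adjusted p = 0.656 by limma) at day 1, 3.77 (SE 1.08, unadjusted p = 0.00173, adjusted p = 0.537) at day 3 and 2.64 (SE 0.977, unadjusted p = 0.0122, adjusted p = 0.533) at day 7. None of these passed the adjusted threshold. Within batches, WT SCI minus WT sham means of *Tek* differed by 3.24 in batch 1 and 1.88 in batch 2 on day 1, by 3.80 and 2.82 on day 3, and by 1.85 and 3.49 on day 7, from 1 or 2 libraries a group. The direction was the same in both batches. Without WT SCI day 7 replicate 12 the fold change at day 7 was 1.71. Without that library at day 7, or without WT SCI day 1 replicate 1 at day 1, none of the 7 genes kept an unadjusted p under 0.05.

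For *Flt1* the log2 fold change at day 3 was 0.80 (SE 0.307, unadjusted p = 0.0148, adjusted p = 0.629 by limma). Within batch 1 the difference of the means was 0.99 and within batch 2 it was -0.09, so it did not hold within both batches. Without WT SCI day 3 replicate 16, the library of batch 2, the fitted value was 1.35, and without replicate 22 it was 0.61. Under median centring, or without replicate 5 or 22, 1 of the 7 genes kept an unadjusted p under 0.05 at day 3. Up to 3 did in other alternatives. The fold changes not given here lay between -0.33 and 0.59 on day 1, -0.16 and 0.81 on day 3, and -1.18 and 0.60 on day 7. Groups did not overlap for *Flt1* and *Tek* at day 1, for *Pecam1* and *Tek* at day 3 and for *Flt1* and *Pecam1* at day 7. That is 2 of 7 genes each time, beside 7.02%, 6.54% and 6.87% of all genes. WT sham is the control of all 3 comparisons, so these counts are not independent of each other.

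**Figure D2:**
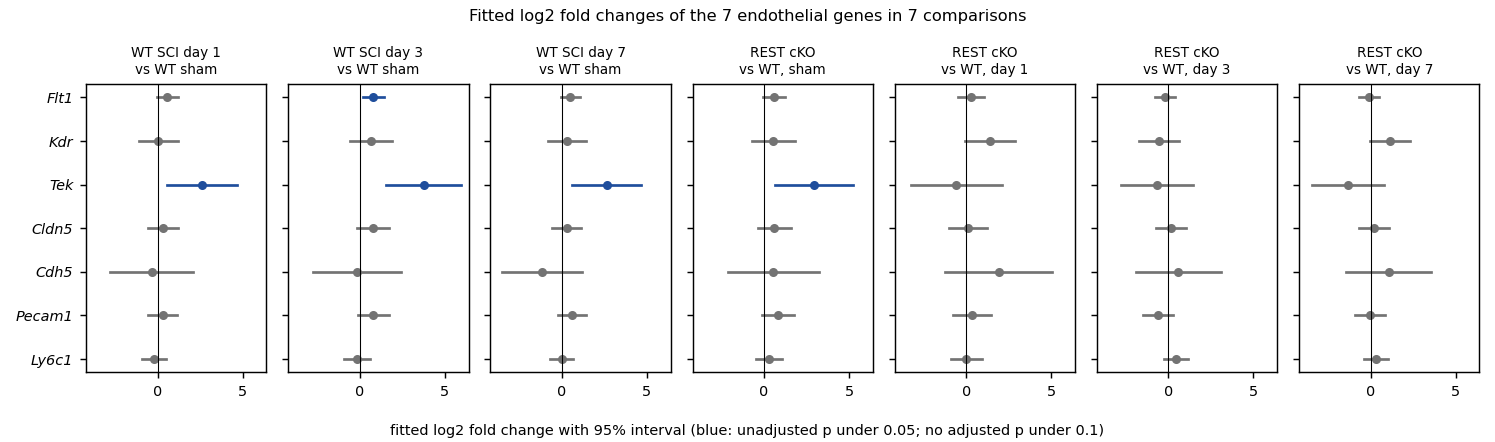
Fitted log2 fold change (x axis, point) with its 95% interval (line) for each endothelial gene (y axis) in the 3 comparisons of SCI with sham in WT and the 4 of REST cKO with WT. *Tek* against WT sham is the widest departure from 0, between 2.63 and 3.77, and no gene passed an adjusted p of 0.1.

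The second comparison asked what REST deletion changed. In sham animals all 7 genes had a positive fold change, also after quantile normalization and median centring. The values ran from 0.28 to 2.93 with a median of 0.58, where the median of all genes was 0.04. None passed an adjusted p of 0.1, beside 0.0302% of all genes, and 1 passed an unadjusted p under 0.05, beside 6.91%. That gene was *Tek*, with a log2 fold change of 2.93 (SE 1.11, unadjusted p = 0.0140, adjusted p = 0.566 by limma). The difference of *Tek* was 3.63 within batch 1 and 0.09 within batch 2, and it did not hold in the second. All 7 genes overlapped between the 2 sham groups, where 7.86% of all genes did not. These values share the WT sham libraries with the comparisons of SCI above. Sex also differed between the 2 sham groups, and the fold change of *Tek* with a term for sex was 2.71. Without REST cKO sham replicate 6, without WT sham replicate 10, or with only the 2 sham groups in the fit, *Tek* lost its unadjusted p under 0.05.

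After SCI, none of the 7 genes passed an adjusted p of 0.1 or an unadjusted p of 0.05 between REST cKO and WT at day 1, day 3 or day 7. Of all genes, 0% passed the first on each day, and 3.81%, 6.37% and 9.95% the second. In 7, 4 and 11 of 36 alternatives 1 of the 7 did pass an unadjusted p of 0.05 on these days, at day 7 among others with a term for sex, which differed wholly between the 2 groups of that day. None passed an adjusted p of 0.1 there. The fold changes of the 7 lay between -0.59 and 1.91 on day 1, -0.66 and 0.57 on day 3, and -1.34 and 1.16 on day 7. Their medians were 0.26, -0.19 and 0.19 beside 0.19, 0.05 and 0.23 for all genes, and the median of day 7 changed sign, to -0.12, when each library was centred on its median. *Kdr* came nearest to the unadjusted threshold, with 1.41 (SE 0.723, 95% interval -0.08 to 2.90) at day 1 and 1.16 (SE 0.576, 95% interval -0.02 to 2.34) at day 7. At day 1 *Kdr* and *Cdh5* did not overlap between the genotypes, 2 of 7 genes beside 18.6% of all, in groups of 2 and 3. At day 3 and day 7 all 7 overlapped, beside 7.59% and 12.4% of all genes that did not.

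The difference between the genotypes in their response to SCI was tested as an interaction. The log2 interaction of *Tek* was -3.52 (SE 1.49, unadjusted p = 0.0259, adjusted p = 0.805 by limma) at day 1, -3.59 (SE 1.68, unadjusted p = 0.0423, adjusted p = 0.957) at day 3 and -4.27 (SE 1.55, unadjusted p = 0.0107, adjusted p = 0.651) at day 7. *Tek* in REST cKO had a mean of 0.68 in sham and of -0.09, 1.45 and -0.48 at days 1, 3 and 7, whereas in WT the sham mean was the lowest of all groups. For *Pecam1* it was -1.43 (SE 0.692, unadjusted p = 0.0488, adjusted p = 0.957 by limma) at day 3. At an unadjusted p under 0.05 these were 1, 2 and 1 of the 7 genes, beside 5.77%, 5.15% and 6.35% of all genes. None passed an adjusted p of 0.1, beside 0%, 0% and 0.0201% of all. The interactions of the 3 days share the WT sham and REST cKO sham libraries, so they are not independent of each other. Without REST cKO SCI day 1 replicate 25, which leaves 1 library in that group, the interaction of *Tek* at day 1 was -1.81. At day 3 none of the 7 genes kept an unadjusted p under 0.05 in 12 of 35 alternatives, among them a term for batch, a term for sex and no components. The interaction calls were also lost at day 1 in 4 of 35, each time without 1 library (WT SCI day 1 replicate 1, REST cKO sham replicate 6 or 23, or REST cKO SCI day 1 replicate 25), and at day 7 without REST cKO sham replicate 6. Without the 2 components the interactions at day 3 were -2.39 for *Tek* and -0.89 for *Pecam1*.

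Across the 25 libraries the 7 genes formed 21 pairs, of which 19 had a positive Pearson's r and 1 reached 0.5. Among all gene pairs, 53.3% were positive and 1.79% reached 0.5. The libraries share scaling, batch correction and groups, so these are descriptions. *Flt1* and *Tek* had the highest r (0.72, Spearman's rho 0.72), which was 0.79 within batch 1 and 0.71 within batch 2, 0.65 with the group means removed, and 0.74 without the 2 libraries farthest from the median of *Flt1*. *Cldn5* had an r of 0.49 with *Flt1* and of 0.48 with *Cdh5*, its partner at endothelial junctions, though the latter was 0.82 within batch 1 and 0.13 within batch 2. *Flt1* and *Pecam1* had an r of 0.46. *Kdr* stood with none of these, since its highest r was 0.30 with *Ly6c1* and its lowest was -0.21 with *Tek*. Over the 10 libraries of batch 1 alone 8 of the 21 pairs (38.1%) reached an r of 0.5, and over the 10 of batch 2 it was 3 (14.3%), while 8.86% of all gene pairs did so in either batch.

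**Figure D3:**
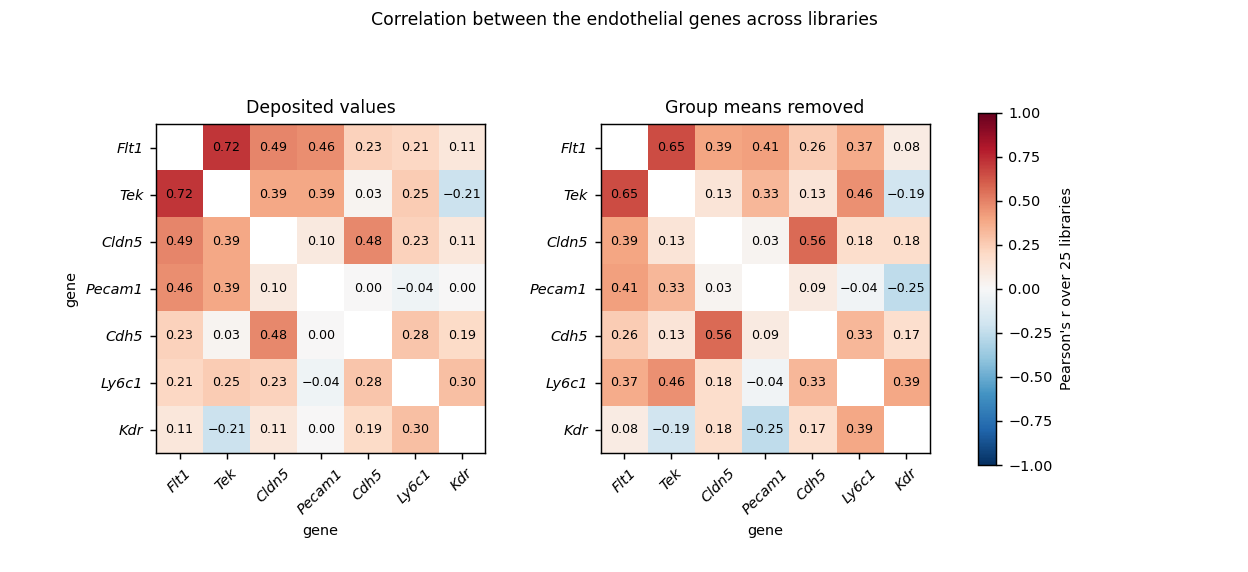
Pearson's r over 25 libraries (colour and number) for each pair of the 7 endothelial genes (both axes), for the deposited values (left) and with the group means removed (right). The *Flt1* and *Tek* cell is the highest on both sides, at 0.72 and 0.65.

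**Figure D4:**
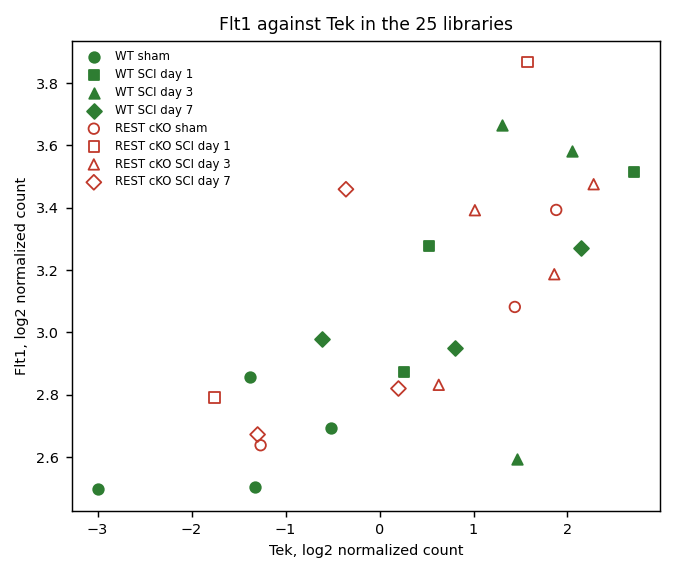
*Flt1* (y axis) against *Tek* (x axis), both as log2 normalized counts, with a point for each library, filled green for WT and open red for REST cKO. The 4 WT sham libraries sit at the lower left and WT SCI day 3 replicate 16 falls below the rest at its *Tek* value (1.46 and 2.59).

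Of genes outside the 7, those most like *Flt1* over the 25 libraries by Pearson's r were *Mt1* (0.77), a metallothionein, *Lama5* (0.69), a laminin chain of basement membranes, and *Arhgef10l* (0.68). The 3 most like *Tek* were *Nudt12* (0.79), *Fbxo42* (0.75) and *Ntm* (0.72), and those most like *Kdr* were *Akap12* (0.82), *Rbbp7* (0.81) and *Sulf2* (0.78). For *Cldn5* they were *Abcg4* (0.77), *Heatr6* (0.72) and *Brinp1* (0.72), and for *Cdh5* they were *Aebp2* (0.86), *D17H6S53E* (0.83) and *Dhx30* (0.81). *Pecam1* was most like *Sdc2* (0.68), *Larp4b* (0.68) and *Sox9* (0.68), and *Ly6c1* most like *Atp2a2* (0.77), *Nedd8* (0.69) and *Mark3* (0.66). Each of these values is among the 3 highest for its gene, and no reference for such picked maxima was computed. None of these 21 genes is on the list of other endothelial genes. The highest r of that list was with *Slco1a4*, a transporter of the blood-brain barrier, for *Flt1* (0.66) and *Tek* (0.52), with *Esam*, an adhesion molecule of endothelial junctions, for *Cldn5* (0.66), with *Ptprb*, the phosphatase that acts on TEK and VE-cadherin, for *Pecam1* (0.65), and with *Erg*, an endothelial ETS factor, for *Cdh5* (0.62). For *Ly6c1* (0.63) and *Kdr* (0.57) it was with *Bsg*, which encodes basigin. These are picked maxima too. The median r over that list ran from 0.04 for *Ly6c1* to 0.22 for *Cldn5*, and over all genes from -0.03 for *Tek* to 0.07 for *Kdr*.

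The other endothelial list had 50 genes, of which 44 were in the table. The mean of the 7 genes and the mean of these 44 had an r of 0.62 over the libraries, 0.73 within batch 1 and 0.88 within batch 2. Of the 44, 5 reached an r of 0.5 with *Flt1* (11.4%, beside 1.26% of all genes) and 8 with *Cldn5* (18.2%, beside 1.43%). With *Tek* 1 of them did (2.27%, beside 1.20%), and with each of *Kdr*, *Cdh5*, *Ly6c1* and *Pecam1* 2 did (4.55%, beside 3.21%, 2.57%, 0.766% and 0.464%). The mean of the 7 genes had an r of 0.54 with that of 4 red blood cell genes, 0.48 with that of 7 perivascular fibroblast genes, 0.45 with the VEGF and angiopoietin pathway, 0.30 with the neuron list, 0.20 with the astrocyte list, 0.18 with 13 mural cell genes, -0.03 with the microglia list and -0.08 with 13 genes of the oligodendrocyte lineage. Within batches 1 and 2 these values could differ widely, with 0.44 and 0.79 for red blood cells, 0.11 and 0.59 for mural cells, -0.22 and 0.49 for microglia, and 0.62 and 0.16 for the VEGF and angiopoietin pathway. 

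None of the 44 other endothelial genes passed an adjusted p of 0.1 in any comparison. In WT after SCI, at an unadjusted p under 0.05, 3 of the 44 were higher and 0 lower than in sham at day 1, 8 higher and 1 lower at day 3, and 5 higher and 1 lower at day 7. These are 6.82%, 20.5% and 13.6% of the 44, beside 6.43%, 6.9% and 6.89% of all genes, so the share of day 1 was near that of all genes. Their median log2 fold change was 0.33, 0.44 and 0.42, beside 0.12, 0.01 and -0.12 for all genes. *Ptprb* had a log2 fold change of 1.58 (SE 0.522) on day 1, 1.56 (SE 0.557) on day 3 and 1.63 (SE 0.506) on day 7, and limma's adjusted p was 0.596, 0.629 and 0.420. Its WT sham libraries lay between 0.09 and 1.29, those of day 1 between 2.14 and 2.64, those of day 3, which overlap sham, between 1.04 and 3.33, and those of day 7 between 2.13 and 2.58. *Slco1a4* had a fold change of 1.84 at day 3 (SE 0.468, unadjusted p = 0.000585, adjusted p = 0.460 by limma), and *Esam* one of 1.24 at day 7 (SE 0.442, unadjusted p = 0.00939, adjusted p = 0.525). *Egfl7*, a secreted endothelial protein, had a fold change of -1.37 at day 7 (SE 0.497, unadjusted p = 0.0106, adjusted p = 0.533 by limma) and no overlap. In REST cKO sham against WT sham 5 of the 44 were higher and 0 lower (11.4%, beside 6.91% of all genes), with a median of 0.32. In REST cKO against WT after SCI the counts were 2 and 0 at day 1, 2 and 2 at day 3, and 4 and 1 at day 7. Their shares of 4.55%, 9.09% and 11.4% were near the 3.81%, 6.37% and 9.95% of all genes. At day 7 *Adgrf5* had a fold change of 2.31 (SE 0.659, unadjusted p = 0.00172, adjusted p = 0.232 by limma). *Ly6c2*, whose values are uncertain, had one of -1.35 (SE 0.394, unadjusted p = 0.00206, adjusted p = 0.232 by limma). Neither overlapped between the genotypes, beside 12.4% of all genes that did not.

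**Figure D5:**
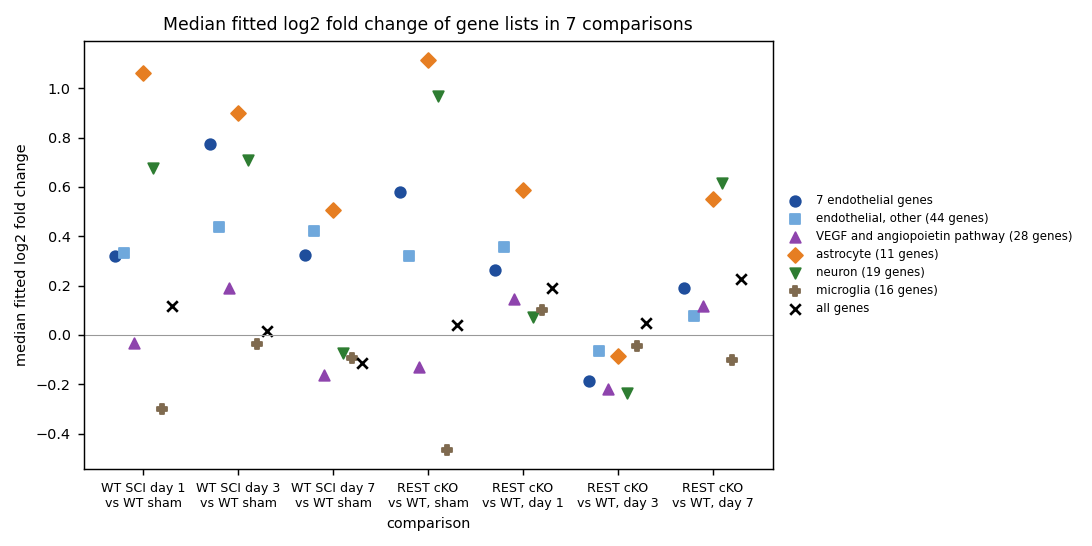
Median fitted log2 fold change (y axis) of the 7 endothelial genes, 5 other lists and all genes (markers) in each comparison (x axis). Against WT sham both endothelial sets lie between 0.32 and 0.77, above the median of all genes, the astrocyte list lies between 0.51 and 1.11, and the neuron list lies at 0.68, 0.71, -0.07 and 0.97.

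In the VEGF and angiopoietin pathway 28 of 35 listed genes were in the table, and none passed an adjusted p of 0.1. At an unadjusted p under 0.05, 1 was higher and 2 lower in WT at day 1, 3 and 1 at day 3, and 3 and 1 at day 7, with medians of -0.03, 0.19 and -0.16. Together these are 10.7%, 14.3% and 14.3% of the 28, beside 6.43%, 6.9% and 6.89% of all genes. The lists share 3 measured genes, and the higher gene of day 1 was *Ptprb*, which is counted in both. Of the ligands, *Vegfb*, which binds FLT1, had a log2 value of 2.42, 2.11, 1.55 and 0.81 in WT sham and of -2.97, -1.24 and 0.92 in WT at day 3. The groups overlapped by a little, and the fold change was -3.71 (SE 0.838, unadjusted p = 0.000161, adjusted p = 0.330 by limma). In REST cKO at day 3 the 4 libraries ran from 1.44 to 2.22, and *Vegfb* against WT was 3.55 (SE 0.805, unadjusted p = 0.000168, adjusted p = 0.620 by limma). Both fold changes rest on the same 3 WT libraries of day 3, so they are not independent of each other. The mean of *Vegfb* was 1.72 in WT sham, 1.68 in REST cKO sham and 1.72 in REST cKO at day 3. The lowest *Vegfb* value was in replicate 5, the library with 29.5% of its values under -2. *Vegfa*, the main ligand of KDR, ran from -0.33 to 1.49 in WT sham and from -2.74 to 0.81 in WT at day 3, with a fold change of -2.28 (SE 1.49, adjusted p = 0.816 by limma). *Angpt2*, a ligand of TEK, ran from -0.48 to 0.12 in WT sham and its fold changes against sham in WT were 0.57, 0.25 and 0.14 (limma, adjusted p 0.961 to 0.986). *Epas1*, which encodes the oxygen-regulated factor HIF-2α, had a fold change of 1.20 at day 7 in WT (SE 0.334, unadjusted p = 0.00134, adjusted p = 0.364 by limma).

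Among the markers of other cells, no gene passed an adjusted p of 0.1 in any comparison. The mean of the 11 astrocyte genes was 0.68 to 0.94 in WT sham, 1.08 to 2.67 at day 1, 0.40 to 1.93 at day 3 and 0.47 to 1.89 at day 7 in WT, and 1.46 to 2.28 in REST cKO sham. At an unadjusted p under 0.05, 5 of the 11 were higher and 0 lower than in WT sham at day 1, 3 and 1 at day 3, 3 and 1 at day 7, and 6 and 1 in REST cKO sham. These are 45.5%, 36.4%, 36.4% and 63.6% of the 11, beside 6.43%, 6.9%, 6.89% and 6.91% of all genes. *Gja1*, the main connexin of astrocytes, had a log2 fold change of 2.29 at day 1 (SE 0.494, unadjusted p = 9.26e-05, adjusted p = 0.197 by limma). The neuron list had a mean of 0.34 to 1.18 in WT sham and of 1.36 to 1.89 in REST cKO sham, where 6 of 19 genes were higher and 0 lower, and in the same comparison 6 of 16 microglia genes were lower and 0 higher. The shares are 31.6% and 37.5%, beside 6.91% of all genes. In WT after SCI 2, 3 and 0 of the 19 neuron genes were higher and 0 lower at days 1, 3 and 7 (10.5%, 15.8% and 0%, beside 6.43%, 6.9% and 6.89%). Of 13 genes of the oligodendrocyte lineage, 4 were higher and 0 lower in WT at day 1 (30.8%, beside 6.43%). Of the 13 mural cell genes, which belong to the pericytes and smooth muscle around vessels, 0 passed an unadjusted p of 0.05 in WT after SCI in either direction. In REST cKO against WT, 1, 1, 2 and 1 of them were higher and 0 lower in sham and at days 1, 3 and 7, which are 7.69%, 7.69%, 15.4% and 7.69% of the 13 beside 6.91%, 3.81%, 6.37% and 9.95% of all genes. Their medians were 0.73, 1.19, 0.67 and 0.36, beside 0.04, 0.19, 0.05 and 0.23 for all genes. In WT after SCI they were -0.26, 0.62 and 0.34, beside 0.12, 0.01 and -0.12. The median of 7 perivascular fibroblast genes was -0.87, 1.26 and 0.55 there, and that of 4 red blood cell genes 0.62, 0.95 and -0.08. Between the sham groups these 2 lists had 1.05 and 0.07. Of the 16 microglia genes, 2 were lower and 0 higher in WT at day 1 and at day 3 (12.5%, beside 6.43% and 6.9%). With a term for the astrocyte mean in the model, chosen after seeing the data, the *Tek* fold changes were 3.28, 4.00 and 2.79 at days 1, 3 and 7 in WT and 3.63 in REST cKO sham against WT sham, and none passed an adjusted p of 0.1. For the other cell types no such term was fitted. The mean of 11 genes does not measure how many astrocytes a library held. The part of astrocytes or of any other cell type in the values was not tested.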

How the data were processed

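RNA-seq values of 25 libraries of cells sorted as cortical neurons, prepared with a 3′ mRNA kit, were analysed. The authors deposited log2 normalized counts, for which STAR aligned the reads (mm10/GRCm38), Salmon and tximport gave values per gene and DESeq2 scaled them, before removing batch effects with RUV, dropping genes without counts in most samples and regressing out 2 components of sequencing quality. The base of the log is taken from an axis label of the paper. Values ran from -4.82 to 5.16, a narrower span than log2 counts usually have, so fold changes may be compressed. They hold no read totals, so depth per library is unknown and no counting error can be given. Columns of the authors' own fold changes and p-values in the same table were not used. Of 9955 rows, 24 (0.241%) had no symbol and were left out. No values belonged to other samples and no 2 libraries were identical.

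Groups, batch, sex and the components came from the sample labels. The model (limma 3.58.1, R 4.3.3) had a mean for each of 8 groups and the 2 components for each gene, followed by empirical Bayes moderation with a trend and Benjamini-Hochberg adjustment over 9931 genes at a threshold of 0.1. The test was checked on simulated data. Correlations are over libraries, without p-values. Members of the set, lists and tests were chosen with earlier results of these data known. Named genes were the 7 members, with fold changes printed where an unadjusted p was under 0.05 and as a range otherwise, the 3 genes most like each member, up to 4 genes per list and comparison with the lowest p, and the VEGF and angiopoietin ligands. *Kdr* and *Ly6c2* values beyond this rule were chosen after they were seen. Positions are from GENCODE for GRCm38. Alternatives were no components, terms for batch or sex, only the groups compared, library weights, a mean log2 value of at least 0, quantile normalization, median centring, no trend, a threshold of 0.05 and leaving out each library, with terms for the share of values under -2 and for the astrocyte mean chosen after seeing the data. Figures were drawn with matplotlib 3.10.9 in Python 3.11.15.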

Additional observations from a re-analysis of the deposited data

Results flagged for a closer look

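*Kdr* in WT sham replicate 3 was -0.13, while the other 3 libraries of that group were 1.66, 1.66 and 2.02. The gap to the nearest library took 0.832 of the range of the group, just above Dixon's critical value for 4 libraries. It was the only one flagged of 14 sets of 4 libraries tested over the 7 genes, and chance flags about 1 set in 20. The same library had the lowest *Cldn5* value of all 25 (1.08), and 7.89% of its values lay under -2.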

How the results depend on the processing

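None of the 7 genes passed the threshold in any of the 10 comparisons and interactions under any alternative, and the 9 fold changes with an unadjusted p under 0.05 kept their sign in all of them, though not always that p. With only the groups compared, no interaction could be fitted. Their adjusted p-values by limma ran from 0.283 to 0.999. The fold change of *Tek* in WT against sham lay between 1.92 and 3.47 on day 1, 3.16 and 4.34 on day 3, and 1.71 and 3.63 on day 7. Its fold change between the sham groups lay between 2.24 and 3.63, and that of *Flt1* on day 3 between 0.61 and 1.35. The interactions of *Tek* lay between -4.98 and -1.81 on day 1, -4.71 and -2.39 on day 3, and -5.37 and -3.50 on day 7, and that of *Pecam1* on day 3 between -1.61 and -0.89. Median centring moved the median fold change of all genes by more than 0.1 in several comparisons, for example from 0.12 to -0.10 in WT on day 1 and from 0.23 to -0.08 between the genotypes on day 7. The number of genes with their lowest mean in WT sham was 5, and 2 after median centring. The number of pairs with an r of at least 0.5 was 1, and it was 2 with the group means removed (9.52%, beside 3.31% of all gene pairs), 8 within batch 1 and 3 within batch 2 (38.1% and 14.3%, beside 8.86% of all gene pairs over 10 libraries). No paired analysis was possible because replicate numbers are not shared between groups. Depth is unknown, so low values such as those of *Tek* and *Cdh5* have no counting interval.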
